A study of Mus musculus with 4 samples.

Results

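This report describes 10 genes of the circadian clock, Arntl, Npas2, Per1, Per2, Per3, Cry1, Nr1d1, Nr1d2, Dbp and Tef, out of 31053 genes listed in single-cell RNA sequencing of cells from the submandibular gland of the mouse, which makes saliva. All 10 were found in every library by their symbol. They were chosen by values measured in these same libraries, namely their differences between deligated and homeostatic libraries in endothelial-, fibroblast-, mural-, NK/innate lymphoid- and T cell-like cells. In those 5 classes their differences are therefore a description and carry no test. Macrophage-, epithelial- and Schwann-like cells did not enter that choice and were tested. They come from the same 4 libraries, so a difference shared by all cells of a library would appear in them too.

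The cells came from female C57BL6/J mice and had been depleted of EpCAM-positive epithelial and Ter119-positive red blood cells. In 2 deligated libraries, from mice aged 14 weeks, a metal clip had closed the main ducts for 14 days and had then been off for 5 days. The 2 homeostatic libraries came from mice aged 12 weeks without surgery. The labels name no transgene or gene deletion in either group. They say that 2 glands were taken but do not state how many animals gave each library, whether replicates were separate animals, or the hour of the day at which glands were taken. Sublingual glands are named with the submandibular glands in the protocols, but only the latter in the tissue label. The p-values measure the spread between these libraries, which may be technical.

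In the clock, Arntl (BMAL1) with Clock or its relative Npas2 forms an activator that binds E-box sequences. It drives its own inhibitors, the Per and Cry genes, as well as Nr1d1 and Nr1d2, nuclear receptors that repress Arntl through the sequence called RORE, and the output factors Dbp and Tef, which bind D-box sequences. In most tissues the levels of these transcripts rise and fall over the day, with Arntl and Npas2 at the opposite time to Nr1d1, Dbp and Tef, and salivary glands are known to hold such clocks.

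The 250 bases before the annotated RefSeq starts (build GRCm38.p6) were searched on both strands for the E-box CACGTG, the D-box as TTATGTAA or TTACATAA, and the RORE as TAGGTCA or TGGGTCA with their reverse complements. Of the 10 members 9 had an entry, with 12 starts in all. The E-box was found for 3 members, the D-box for 1 and the RORE for 0. Over all genes in that table, 6.86% had a promoter with the E-box, 0.977% one with the D-box and 6.15% one with the RORE. Counted over single promoters the shares were 6.02%, 0.819% and 5.38%. The stretches that held a motif are printed here, read towards the gene, because they place members that lay on different sides of zero next to the sequences the clock factors are known to bind. Capitals mark the motif.
Per1, first start, chr11:69098699-69098948, plus strand: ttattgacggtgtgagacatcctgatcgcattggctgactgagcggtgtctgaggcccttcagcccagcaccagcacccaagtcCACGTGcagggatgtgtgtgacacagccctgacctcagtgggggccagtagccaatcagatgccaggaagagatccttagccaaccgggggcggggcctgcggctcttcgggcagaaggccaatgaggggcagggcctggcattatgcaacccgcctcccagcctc
Cry1, chr10:85185055-85185304, minus strand: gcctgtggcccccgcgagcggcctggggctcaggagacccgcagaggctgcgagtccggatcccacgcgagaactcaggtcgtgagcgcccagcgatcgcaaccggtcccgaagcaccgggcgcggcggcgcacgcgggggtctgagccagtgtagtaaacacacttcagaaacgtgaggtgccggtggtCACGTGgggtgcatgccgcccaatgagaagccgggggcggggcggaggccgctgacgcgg
Tef, first start, chr15:81802423-81802672, plus strand: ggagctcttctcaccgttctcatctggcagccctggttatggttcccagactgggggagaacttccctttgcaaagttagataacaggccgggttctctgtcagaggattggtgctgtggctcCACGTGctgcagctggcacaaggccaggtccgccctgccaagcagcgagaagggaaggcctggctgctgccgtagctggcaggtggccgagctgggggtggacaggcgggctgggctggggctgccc
Tef, second start, chr15:81811164-81811413, plus strand: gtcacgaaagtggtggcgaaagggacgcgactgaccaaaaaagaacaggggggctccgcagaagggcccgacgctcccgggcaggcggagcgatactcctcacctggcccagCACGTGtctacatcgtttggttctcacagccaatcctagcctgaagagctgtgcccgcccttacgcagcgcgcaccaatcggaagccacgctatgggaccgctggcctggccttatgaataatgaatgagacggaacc
Per3, chr4:151044666-151044915, minus strand: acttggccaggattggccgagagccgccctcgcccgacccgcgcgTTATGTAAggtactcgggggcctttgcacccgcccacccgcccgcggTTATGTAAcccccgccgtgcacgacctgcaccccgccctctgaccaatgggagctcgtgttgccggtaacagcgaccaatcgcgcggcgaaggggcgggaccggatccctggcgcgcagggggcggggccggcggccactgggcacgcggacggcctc
The E-box lay 166 bases before the first start of Per1, 60 before that of Cry1, and 127 and 138 before the starts of Tef. Per3 held 2 copies of the D-box in its window, 205 and 158 bases before the start. A match is a string of letters in this window and not a measured binding site.

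After removal of poor-quality cells and presumed doublets, 4357 and 7823 deligated and 10615 and 10900 homeostatic cells were kept, and 8 classes with at least 20 cells in every library were compared. Of the markers that define the classes outside the choice, 9 of 9 epithelial and 8 of 8 macrophage markers were detected in every library, and at most 1 of 7 Schwann markers was at 0 in a library. Levels are UMIs (unique molecular identifiers, each standing for a captured RNA molecule) per 1000000 UMIs of the class in that library, written CPM. Library totals ran from 35662241 to 53898793 UMIs. Over all deposited barcodes, deligated cells carried a median of 6075 and 5278 UMIs against 2912 and 2766 in homeostatic ones, with a median mitochondrial share of 3.04% and 2.83% against 1.87% and 1.92%. Both measures separated the groups as the clock genes did, and their part in the results was not tested. Within endothelial-like cells the mitochondrial share was 3.01% and 2.72% against 2.05% and 2.17%. It was 2.84% and 2.74% against 2.34% and 2.39% in NK/innate lymphoid-like and 2.99% and 2.95% against 2.54% and 2.48% in T cell-like cells. Both deligated libraries were also higher in epithelial-, macrophage- and Schwann-like cells. In fibroblast-like cells the share was 2.93% and 3.0% against 3.09% and 3.01%, and in mural-like cells 5.41% and 4.45% against 4.08% and 5.60%. Deligated libraries carry Cell Ranger 6.0.1 in their headers and homeostatic libraries 7.0.0, so software version, age, surgery and group cannot be told apart. Across genes Spearman's rho of the log2 fold change with total intron length was -0.42 in endothelial-like and -0.57 in NK/innate lymphoid-like cells, with long-intron genes lower in the deligated libraries. It was -0.45 in macrophage-like, -0.15 in Schwann-like and 0.02 in epithelial-like cells, so the trend did not hold in every class. Genes are not independent replicates. Values with that trend removed are therefore given for the long-intron members. Between 14 and 54 cell barcodes were shared by any 2 libraries, at most 0.482% of the smaller one.

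Arntl (chromosome 7, 113207465 to 113314126, with 99.1 kb of intron), the core activator, was lower in the deligated libraries in most classes. In endothelial-like cells it was at 27.6 and 25.6 CPM in the deligated and 53.9 and 56.0 CPM in the homeostatic libraries. In fibroblast-like cells it was at 35.3 and 36.9 against 90.6 and 80.7 CPM. In NK/innate lymphoid-like cells the values were 10.9 and 9.16 against 26.8 and 27.5 CPM. The groups did not overlap in these 3 classes, nor in mural-like cells, with 22.5 and 22.3 against 52.8 and 42.3 CPM. The log2 fold change (deligated over homeostatic, from edgeR) was -1.03 with a standard error (SE) of 0.10 in the endothelial, -1.19 (SE 0.14) in the fibroblast, -1.08 (SE 0.26) in the mural and -1.38 (SE 0.16) in the NK/innate lymphoid class. With the intron trend removed these became -0.60, -0.57, -0.68 and -0.56 in that order. In T cell-like cells Arntl was at 21.5 and 11.6 against 27.4 and 34.9 CPM, with -0.82 (SE 0.38), or -0.06 with the trend removed.

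Npas2 (chromosome 1, 39193731 to 39363236), which can take the place of Clock beside Arntl, has 164.7 kb of intron, the most of the members. It was at its highest level in fibroblast-like cells, with 23.8 and 30.4 CPM in the deligated and 177 and 206 CPM in the homeostatic libraries. In mural-like cells it was at 7.49 and 16.2 against 54.4 and 109 CPM, and in endothelial-like cells at 1.16 and 1.26 against 2.19 and 2.84 CPM. Both deligated libraries were below both homeostatic ones in each. In that order the log2 fold changes were -2.76 (SE 0.16), -2.78 (SE 0.38) and -1.03 (SE 0.30). They were -1.80, -2.11 and -0.33 with the intron trend removed. NK/innate lymphoid-like cells held only 1 to 3 Npas2 UMIs per library and were not fitted.

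Cry1 (chromosome 10, 85131700 to 85185064, 50.0 kb of intron), a partner of the Per proteins in repression, was at 7.37 and 9.42 against 12.0 and 12.4 CPM in endothelial-like cells. In the NK/innate lymphoid class it was at 4.05 and 3.29 against 11.6 and 9.97 CPM. Both deligated libraries were below both homeostatic libraries in each, and also in fibroblast-like cells, at 5.22 and 5.37 against 11.4 and 14.5 CPM. The log2 fold changes were -0.52 (SE 0.15), -1.50 (SE 0.24) and -1.23 (SE 0.31) in that order, and -0.36, -1.13 and -0.96 without the intron trend. In mural-like cells Cry1 was at 11.9 and 10.5 against 31.3 and 13.0 CPM (-0.97, SE 0.42).

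Per1 (chromosome 11, 69095217 to 69109960), an inhibitor of the activator that also responds quickly to hormones and stress, has only 9.11 kb of intron. It was at 17.2 and 15.9 against 31.8 and 28.3 CPM in endothelial-like and at 19.2 and 27.0 against 50.1 and 50.1 CPM in NK/innate lymphoid-like cells. Removal of the intron trend made its log2 fold change more negative, from -0.84 (SE 0.11) to -0.97 in the former and from -1.0 (SE 0.14) to -1.20 in the latter. In fibroblast-like cells Per1 was at 16.7 and 11.3 against 17.6 and 23.7 CPM (-0.51, SE 0.28). In mural-like cells the groups overlapped, at 15.4 and 11.4 against 23.1 and 9.76 CPM. Per2 (chromosome 1, 91415982 to 91459324), its close relative, was scarce. It was at 2.46 and 6.67 against 3.15 and 4.09 CPM in endothelial-like cells, so the deligated libraries lay on either side of the homeostatic ones.

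Per3 (chromosome 4, 151003652 to 151044665), the third Per gene, lay on the other side of zero from Per1. It was at 25.6 and 28.9 against 11.8 and 14.7 CPM in endothelial-like cells and at 29.8 and 27.2 against 13.5 and 12.4 CPM in fibroblast-like cells. The deligated libraries were above the homeostatic ones in both. The log2 fold changes were 1.06 (SE 0.13) and 1.19 (SE 0.21). In NK/innate lymphoid-like cells Per3 was at 6.34 and 8.53 against 5.65 and 5.62 CPM (0.51, SE 0.23). Camta1 overlaps Per3 on the same strand, so reads in the shared part could count for either gene.

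Nr1d1 (chromosome 11, 98767932 to 98775333), which encodes the repressor REV-ERB alpha, was the member with both deligated libraries above both homeostatic ones in all 8 classes. In endothelial-like cells it was at 79.1 and 112 against 20.5 and 24.4 CPM, in fibroblast-like cells at 104 and 139 against 24.8 and 27.5 CPM, and in mural-like cells at 68.7 and 94.1 against 23.1 and 21.2 CPM. In NK/innate lymphoid-like cells it was at 2.29 and 3.99 against 0.847 and 0.843 CPM, from 13, 51, 6 and 6 UMIs. Fibroblast-like cells had the highest and NK/innate lymphoid-like cells the lowest mean Nr1d1 level of the 8 classes in both groups. In the 5 classes that chose the members the log2 fold changes ran from 1.73 (SE 0.61) in T cell-like to 2.27 (SE 0.18) in fibroblast-like cells. The T cell-like value rests on 1 and 9 homeostatic UMIs and was 0.88 without the first and 4.01 without the second homeostatic library. Nr1d2 (chromosome 14, 18204054 to 18239127), which encodes REV-ERB beta, was at 58.3 and 63.0 CPM in the deligated endothelial-like cells against a mean of 30.2 CPM in the homeostatic ones (log2 fold change 1.02, SE 0.08). In fibroblast-like cells it was at 42.6 and 49.1 against 19.7 and 14.5 CPM (1.48, SE 0.20). In T cell-like cells it was at 22.1 and 21.6 against 17.1 and 28.1 CPM, where the groups overlapped.

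Dbp (chromosome 7, 45705088 to 45710203), an activator of D-box genes and an output of the clock, has 2.12 kb of intron, the least of the members. It was at 69.2 and 85.9 against 13.3 and 12.0 CPM in endothelial-like cells and at 33.4 and 46.4 against 8.28 and 4.84 CPM in fibroblast-like cells. Among NK/innate lymphoid-like cells it was at 10.7 and 12.1 against 5.93 and 5.34 CPM, and in T cell-like cells at 16.7 and 23.2 against 11.4 and 13.5 CPM. Both deligated libraries were above both homeostatic ones in each class. The log2 fold changes were 2.64 (SE 0.12), 2.65 (SE 0.28), 1.11 (SE 0.19) and 0.80 (SE 0.32) in that order, so the fitted values in the lymphoid classes were below those in the stromal ones. That difference between classes was not tested. In mural-like cells Dbp was at 51.5 and 58.8 against 3.30 and 9.76 CPM, the latter from 2 and 6 UMIs (3.06, SE 0.39). Tef (chromosome 15, 81802421 to 81826863), a relative of Dbp with the same target sequence, was at 42.6 and 47.7 against 17.6 and 20.0 CPM in endothelial-like cells (log2 fold change 1.28, SE 0.10). In NK/innate lymphoid-like cells it was at 12.9 and 11.4 against 9.88 and 9.55 CPM (0.39, SE 0.17). Opposite to these genes lie Sphk2 (Dbp), Thra (Nr1d1), Gm45355 (Arntl) and Gm17597 (Tef), and without strand their reads cannot be told apart.

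Markers of other cell types also differed between groups in the 5 classes that chose the members. Fibroblast markers were higher in both deligated libraries of endothelial-like (37.3 and 116 against 9.24 and 9.14 CPM), mural-like (1032 and 945 against 455 and 412 CPM), NK/innate lymphoid-like (42.1 and 116 against 37.8 and 7.02 CPM) and T cell-like cells (43.5 and 133 against 11.4 and 15.8 CPM). Mural markers were higher in endothelial-like (72.9 and 88.0 against 46.3 and 32.1 CPM), fibroblast-like (568 and 589 against 381 and 373 CPM), NK/innate lymphoid-like (54.4 and 83.4 against 20.2 and 18.4 CPM) and T cell-like cells (67.3 and 108 against 36.5 and 24.8 CPM). Epithelial markers were lower in all 5, for example at 2.05 and 5.63 against 36.0 and 41.3 CPM in endothelial-like cells. Erythroid markers in mural-like cells were at 5905 CPM in the second deligated library against 34.4, 143 and 73.2 CPM in the other 3. T cell markers were higher in endothelial-, mural- and fibroblast-like cells (10.8 and 48.1 against 1.55 and 0 CPM in the last). NK/innate lymphoid markers were higher in mural- and endothelial-like cells (13.7 and 75.1 against 9.38 and 5.06 CPM in the last). Macrophage markers were lower in all but T cell-like cells (4.43 and 15.1 against 30.3 and 20.4 CPM in endothelial-like cells). Schwann markers were lower in all but mural-like cells. The part of these lists in the differences of the members was not tested.

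**Figure D1:**
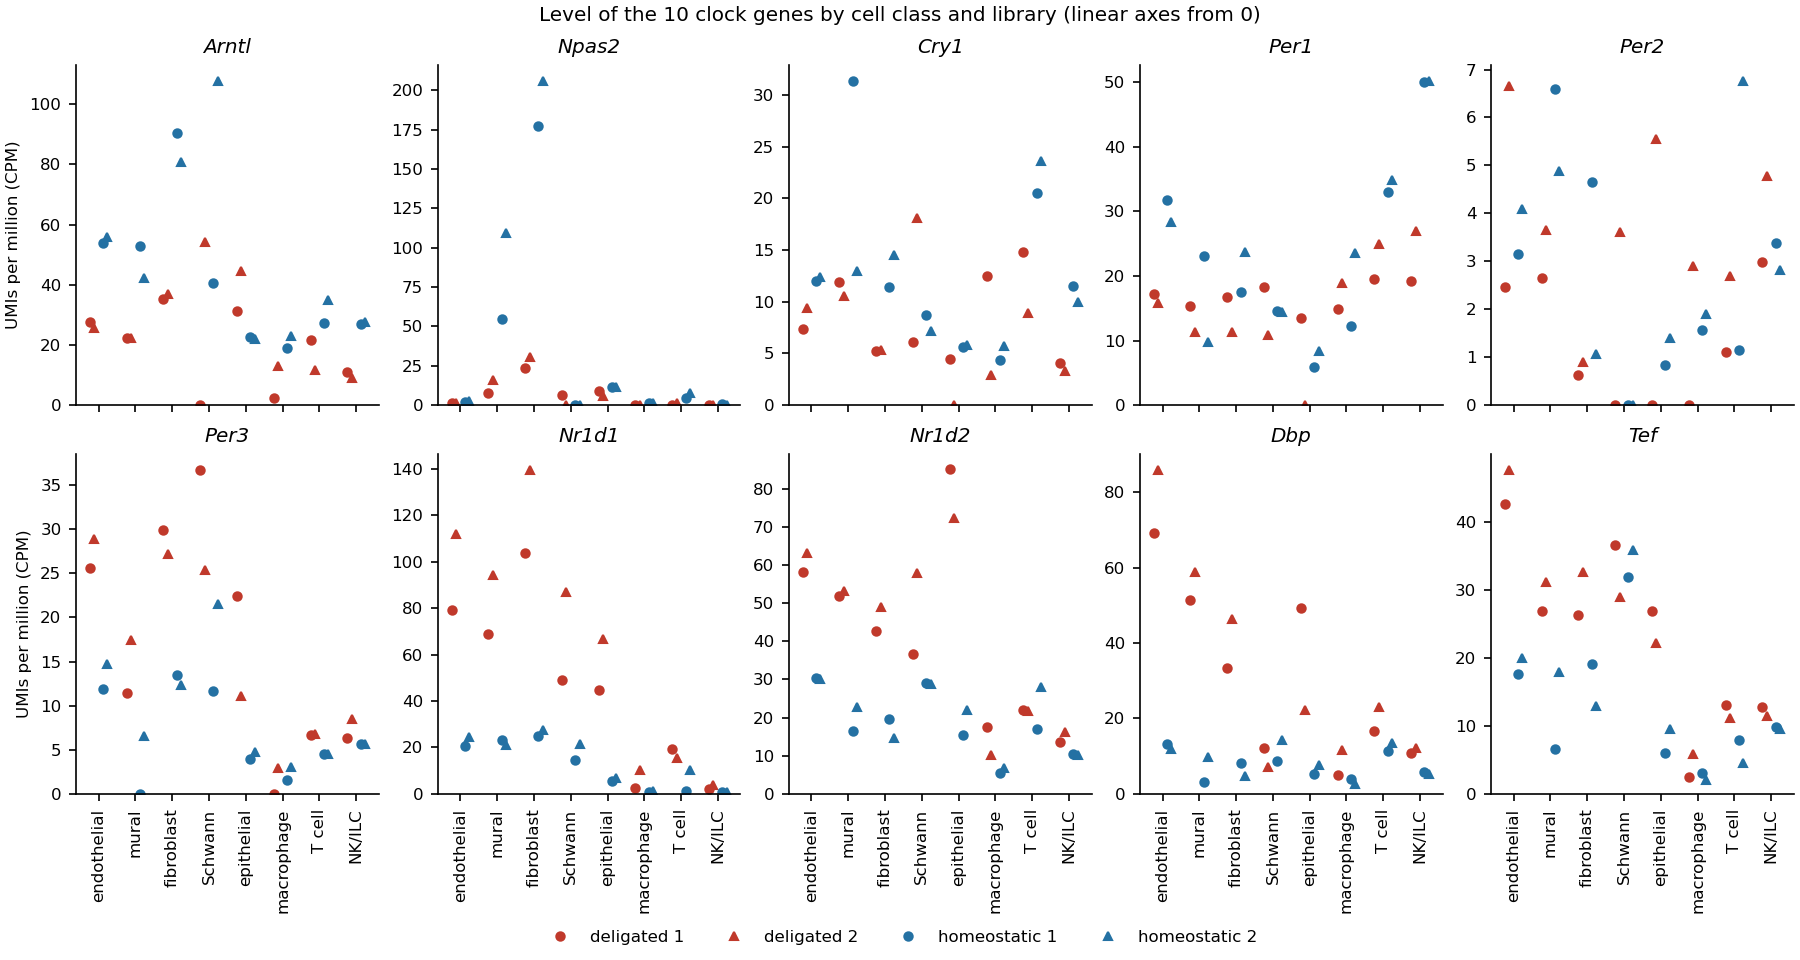
CPM of each member (y axis, linear from 0, scaled per gene) in 8 cell classes (x axis), with 1 point per library, deligated in red and homeostatic in blue. For Nr1d1 both red points lie above both blue points in all 8 classes, and Npas2 reaches 206 CPM in homeostatic fibroblast-like cells.

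Counted over class and gene pairs with at least 20 UMIs, Nr1d1 was above in 8 of 8 classes, Dbp in 7 of 7, Nr1d2 and Per3 in 7 of 8 and Tef in 6 of 8, with the groups overlapping in the rest. Cry1 was below in 6 of 7, Arntl in 6 of 8, Npas2 in 4 of 4, Per1 in 4 of 7 and Per2 in 2 of 6. Over all 91263 such pairs of all genes, both deligated libraries were above in 28.5% and below in 30.9%. The counts for the 5 classes used in the choice follow from it, and nothing is read from them. Some log2 fold changes in those classes moved by over 1.5 times. In mural-like cells Per3 was 1.11 and 7.70, Tef 0.67 and 2.16 and Cry1 -0.24 and -1.45 without the first and the second homeostatic library. There Npas2 ran from -3.38 to -1.49 and Arntl from -1.49 to -0.67. In T cell-like cells Arntl ran from -1.32 to -0.06 and Npas2 from -3.16 to -1.54, both weakest without the intron trend described above. In fibroblast-like cells Dbp was 4.58 after thinning, and Per1 was -0.84 without the first and -0.18 without the second deligated library. In NK/innate lymphoid-like cells Per3 fell to 0.31 and Per2 to 0.09 without the second deligated library, Nr1d2 was 0.96 after thinning, and Arntl was -0.56 without the intron trend. Cry1 ran from -1.35 to -0.14, Per3 from 0.15 to 0.79 and Dbp from 0.47 to 1.01 in T cell-like cells. Nr1d2 in mural-like cells was 0.80 after thinning, and Per2 in endothelial-like cells ran from -0.47 to 0.86. The remaining values that moved this far are given beside their genes or with the changes of sign. Arntl was the sole member to be above in 1 class and below in others.

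These 5 classes chose the members, so counts of members at an adjusted p under 0.05 by edgeR describe the choice, test nothing, and are given only beside the share of all genes. In endothelial-like cells it was 9 of the 10 members fitted, where 35.6% of all genes were called. In fibroblast-like cells 8 of 9 were called, against 27.6% of all genes. In mural-like cells 5 of 9 were called against 8.68%, and in NK/innate lymphoid-like cells 6 of 9 against 41.4%. In T cell-like cells 0 of 9 were called, where 17.5% of all genes were, with 4 at an unadjusted p under 0.05 and 0 by DESeq2.

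**Figure D2:**
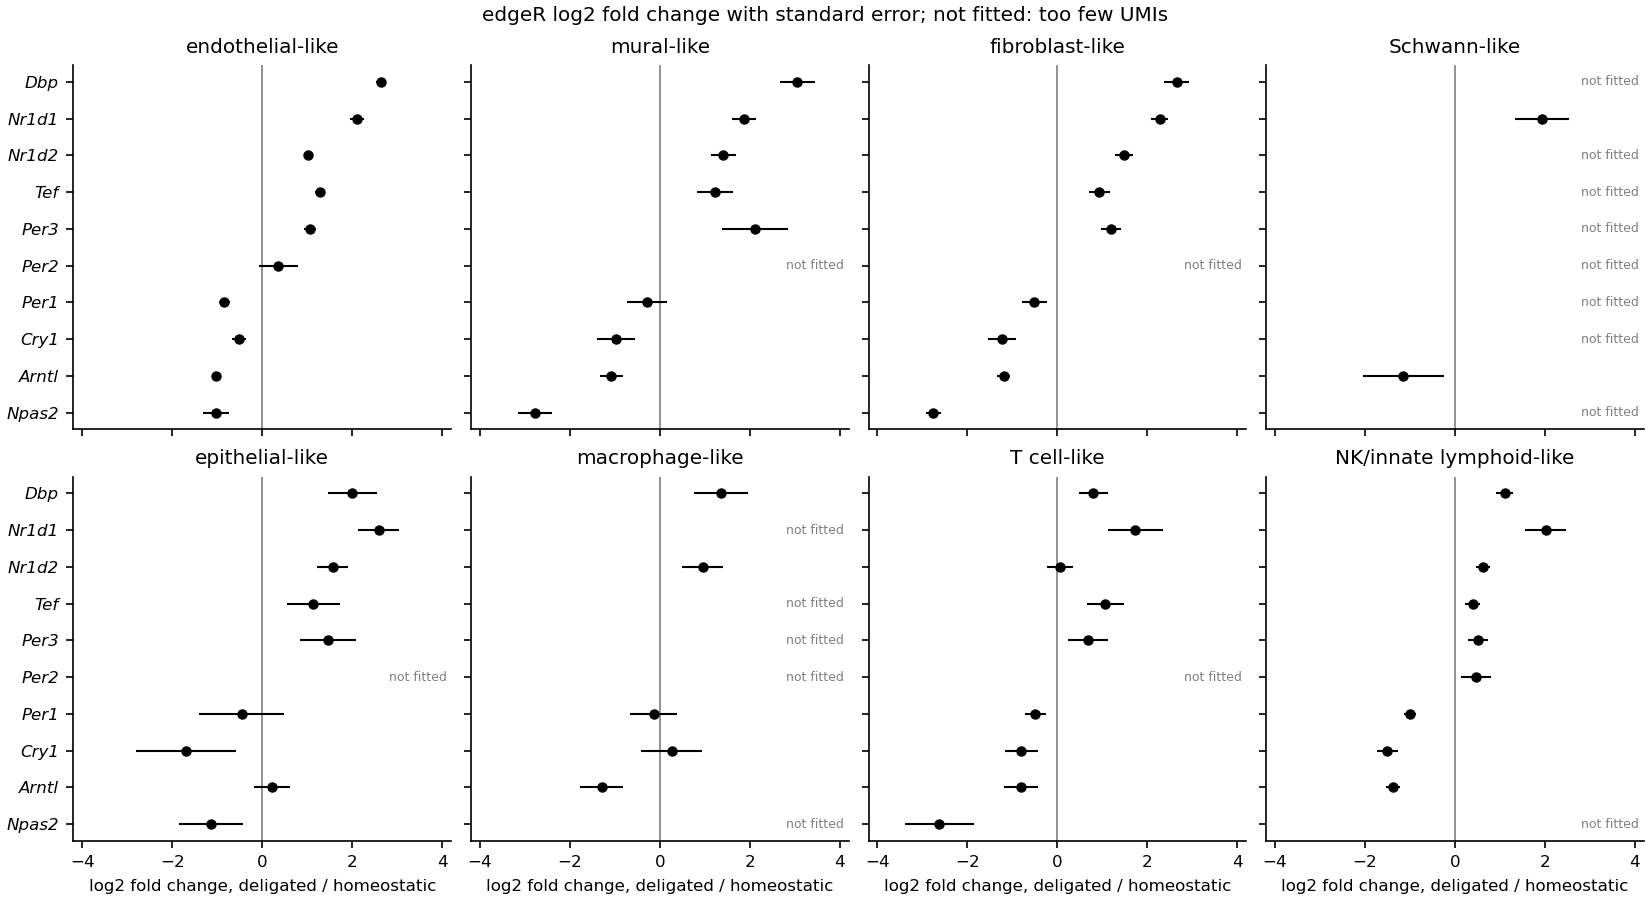
Log2 fold change of each member, deligated over homeostatic (x axis), with its standard error as a bar, in 8 cell classes; members with too few UMIs are marked as not fitted. In endothelial-like cells Dbp (2.64) and Nr1d1 (2.11) lie farthest to the right and Arntl and Npas2 (both -1.03) farthest to the left.

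The 3 classes outside the choice held few deligated cells. Macrophage-like cells numbered 57 and 117 in the deligated and 1063 and 1052 in the homeostatic libraries, epithelial-like cells 39 and 115 against 2765 and 2993, and Schwann-like cells 28 and 60 against 44 and 43. Their summed UMIs in a library ran from 401526 to 5719053, 179951 to 5024231 and 139395 to 344352. A member with 10 UMIs in a library of such a class has a wide counting error, and for several members the deligated value rests on fewer.

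Epithelial-like cells, of a kind that the bead depletion was meant to remove, were a mixture of clusters described after the values. They carried a median of 2425 and 964 UMIs in the deligated and 1073 and 1031 in the homeostatic libraries. Their median mitochondrial share was 0.70% and 0.11% against 0.07% and 0.08%, below that of the other tested classes. The part of these measures in the result was not tested. Nr1d1 was at 44.8 and 66.7 CPM in the deligated and 5.63 and 6.97 CPM in the homeostatic libraries, from 10, 12, 27 and 35 UMIs. The lowest deligated value was well above the highest homeostatic one. By edgeR Nr1d1 was higher by 2.59 on the log2 scale (SE 0.45, adjusted p 0.0336) and was the 1 member called among 9 fitted, where 1.8% of all genes were called. Without the first or the second homeostatic library its log2 fold change was 2.60 or 2.83 but the call was lost (adjusted p 0.99 and 0.718), over alternatives that ran from 2.47e-05 to 0.99.

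Nr1d2 was at 85.0 and 72.2 against 15.4 and 21.9 CPM in epithelial-like cells (log2 fold change 1.56, SE 0.35, adjusted p 0.0656). Dbp was at 49.2 and 22.2 against 5.21 and 7.56 CPM (2.00, SE 0.54, adjusted p 0.101), and Tef at 26.9 and 22.2 against 6.05 and 9.55 CPM (1.14, SE 0.58, adjusted p 0.298). Per3 was at 22.4 and 11.1 against 3.96 and 4.78 CPM (1.45, SE 0.62, adjusted p 0.233). None of these 4 passed the threshold. Both deligated libraries were above both homeostatic ones for each, as they were for 39.6% of all genes with at least 20 UMIs in this class. Over the alternatives Dbp ran from 1.31 (without the first deligated library) to 2.44 and Per3 from 0.86 (without the same library) to 2.33, both highest with doublets kept. Without the second deligated library the adjusted p of Nr1d2 and Dbp was 0.0119 and 0.00939, but that fit has 1 deligated library, which is assumed to vary like the homeostatic ones. Arntl was at 31.3 and 44.5 against 22.5 and 21.9 CPM, from 7, 8, 108 and 110 UMIs (0.22, SE 0.40, adjusted p 0.777). Npas2 and Cry1 had log2 fold changes of -1.15 (SE 0.71, adjusted p 0.382) and -1.70 (SE 1.11, adjusted p 0.404), Per1 had -0.46 (SE 0.95, adjusted p 0.807), and Per2 was not fitted. Cry1 rests on 1 and 0 deligated against 27 and 29 homeostatic UMIs, and its value was -7.27 without the first and weakest without the second deligated library. Npas2 had 2 and 1 against 56 and 57 UMIs.

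The epithelial-like class was not made of the same cells in each library. A cluster led by Krt14 and Krt5, keratins of basal and myoepithelial cells, gave 87.3% of the class's UMIs in the first deligated library against 7.23% and 10.8% in the homeostatic ones, and had under 15 cells in the second deligated library. Within it Nr1d1 was at 51.3 CPM in the first deligated and 20.2 and 20.3 CPM in the homeostatic libraries, and Arntl at 30.8 against 63.5 and 53.4 CPM. The order of the libraries for Arntl in this cluster was thus the reverse of that in the whole class. Npas2 was at 10.3 against 75.0 and 58.9 CPM there. A cluster led by Cox8b and Fxyd2, with low UMI counts and Krt7 among its leading genes, held 43.6% and 53.0% of deligated and 52.1% and 54.7% of homeostatic cells of the class. In it Nr1d1 had 0 and 6 UMIs against 4 and 7, or 0 and 102 against 3.21 and 4.99 CPM. Endothelial markers were summed at 403 and 289 against 167 and 128 CPM in epithelial-like cells, which is 3.06% and 2.04% against 1.23% and 0.97% of their level in endothelial-like cells. All 8 of these markers were detected except 1 in the second deligated library. Mural markers, some of which myoepithelial cells also express, were summed at 4650 and 2078 against 619 and 1545 CPM, with 0, 2, 1 and 0 of 9 at 0. Fibroblast markers were summed at 533 and 406 against 167 and 126 CPM, with 3, 0, 0 and 0 of 7 at 0. Schwann cell markers were at 143 and 106 against 25.9 and 37.0 CPM and T cell markers at 98.5 and 50.0 against 5.84 and 5.17 CPM. All 5 lists were higher in both deligated libraries, as Nr1d1 and the class's own epithelial markers were (2762 and 2690 against 1952 and 2131 CPM), and macrophage markers were lower. Their part in the result was not tested.

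In macrophage-like cells, phagocytes of the gland, 5 members had enough UMIs to be fitted and 0 were called by edgeR, where 15.2% of all genes were. At an unadjusted p under 0.05 it was 1 (Arntl), and DESeq2 called 0. Arntl was at 2.49 and 13.1 against 19.1 and 22.8 CPM, from 1, 9, 109 and 120 UMIs (log2 fold change -1.30, SE 0.48, adjusted p 0.111). The deligated libraries were both below, as they were for 29.7% of all genes with at least 20 UMIs in this class. The value ran from -3.20 to -0.58 over the alternatives, the latter with the intron trend removed, with adjusted p from 0.0136 to 0.541. The lowest p came without the second deligated library, where the 1 left is assumed to vary like the homeostatic ones. Dbp was at 4.98 and 11.6 against 3.85 and 2.66 CPM (1.36, SE 0.59, adjusted p 0.165) and Nr1d2 at 17.4 and 10.2 against 5.60 and 6.85 CPM (0.95, SE 0.45, adjusted p 0.199). Dbp was 0.45 without the second and 1.72 without the first deligated library, and Nr1d2 ran from 0.61 (without the first) to 1.96 (thinned). Nr1d1 was too scarce to be fitted, with 1 and 7 against 6 and 6 UMIs, or 2.49 and 10.2 against 1.05 and 1.14 CPM. Per1 (-0.14, SE 0.53, adjusted p 0.90) and Cry1 (0.26, SE 0.68, adjusted p 0.84) had overlapping groups. The class held a cluster led by Cx3cr1 and one led by Ccl6 and Wfdc17, and the latter gave 55.1% of its UMIs in the first deligated library against 15.4% to 19.1% in the other 3. In the Cx3cr1 cluster Arntl was at 5.55 and 10.8 against 21.9 and 25.6 CPM, from 1, 6, 106 and 112 UMIs. In the Ccl6 cluster it had 0, 3, 3 and 8 UMIs, with overlapping groups. Dbp, Nr1d2, Tef, Per3 and Arntl had their lowest mean level of the 8 classes here in both groups. Haemoglobin and other erythroid markers were summed at 43150 and 68382 against 137222 and 127254 CPM in this class. Monocyte and neutrophil markers were summed at 3793 CPM in the first deligated library, which had the lowest Arntl level, against 88.7, 49.3 and 89.6 CPM in the other 3. Macrophage markers were at 9118 CPM there against 14852, 14579 and 14956 CPM. Dendritic cell markers were at 274 and 180 against 30.2 and 29.9 CPM and NK/innate lymphoid markers at 132 and 118 against 33.2 and 21.1 CPM. The endothelial, lymphatic, fibroblast, mural, T cell, B cell and mast cell lists were also higher in both deligated libraries, and the epithelial one lower. The part of these lists in the result was not tested.

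Schwann-like cells, the glia of the nerves, had 2 members with enough UMIs, and 0 were called by edgeR, where 0.12% of all genes were. At an unadjusted p under 0.05 it was 1 (Nr1d1), and DESeq2 called 0. Nr1d1 reached the level that the filter on low counts asks for only in the deligated libraries, where it was high. Its fold change and p-values carry that selection and are a description. In this class both deligated libraries were above both homeostatic ones for 21.4% of all genes with at least 20 UMIs. Nr1d1 was at 48.9 and 86.8 against 14.5 and 21.5 CPM, from 8, 24, 5 and 3 UMIs (log2 fold change 1.93, SE 0.60, adjusted p 0.275). Both deligated libraries were above, and the adjusted p ran from 0.00874 to 0.813 over the alternatives. The lowest p came without the second homeostatic library, where the 1 left is assumed to vary like the deligated ones. Arntl was at 0 and 54.2 against 40.7 and 108 CPM, from 0, 15, 14 and 15 UMIs, with overlapping groups (-1.14, SE 0.90, adjusted p 0.652). This value was -6.97 without the second deligated and -0.34 without the second homeostatic library. The limit that a count of 0 allows in the first deligated library, taken as 3 UMIs, is 18.3 CPM. Dbp gave 2, 2, 3 and 2 UMIs, or 12.2 and 7.23 against 8.71 and 14.3 CPM, with overlapping groups. It had too few UMIs to be fitted, so a difference was not tested. Fibroblast markers were summed at 4356 and 3091 against 595 and 1277 CPM in this class, 10.7% and 8.15% against 2.21% and 4.60% of their level in fibroblast-like cells. Erythroid markers were summed at 16281 CPM in the first deligated library, in which Arntl had 0 UMIs, against 221, 102 and 560 CPM in the other 3. T cell markers were at 293 and 32.5 against 2.90 and 0 CPM, mural markers at 147 and 159 against 31.9 and 115 CPM, epithelial markers at 67.2 and 65.1 against 55.2 and 28.7 CPM and macrophage markers at 0 and 10.8 against 285 and 28.7 CPM. The part of these lists in the result was not tested for Schwann-like cells.

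To follow the output arm relative to the activator within a library, the log2 ratio of Dbp to Arntl UMIs was taken, with 0.5 added to both counts. Its height depends on how well each gene is captured, so it was compared only between libraries. In endothelial-like cells it was 1.33 and 1.75 in the deligated and -2.02 and -2.22 in the homeostatic libraries. In macrophage-like cells it was 0.74 and -0.16 against -2.28 and -3.05. The deligated values there rest on 2 and 8 Dbp and 1 and 9 Arntl UMIs. In epithelial-like cells, whose clusters differed between libraries, it was 0.62 and -0.92 against -2.09 and -1.52. The deligated values there rest on 11 and 4 Dbp and 7 and 8 Arntl UMIs. The deligated libraries were above in 7 of 8 classes, but 5 of these are the classes whose Dbp and Arntl differences chose the members, so the count is a description. Of the 3 classes outside the choice they were above in 2. Schwann-like cells were the exception, where the second library of each group gave the same value, -2.63. The share of other gene pairs with such an order was not taken. Single genes with at least 20 UMIs were above in 39.6% of cases in epithelial-like and 31.1% in macrophage-like cells, so nothing is read from the count. The mean shift ran from 1.60 in T cell-like to 4.15 in mural-like cells. Arntl has 99.1 kb and Dbp 2.12 kb of intron, and the part of that in the shift was not tested.

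**Figure D3:**
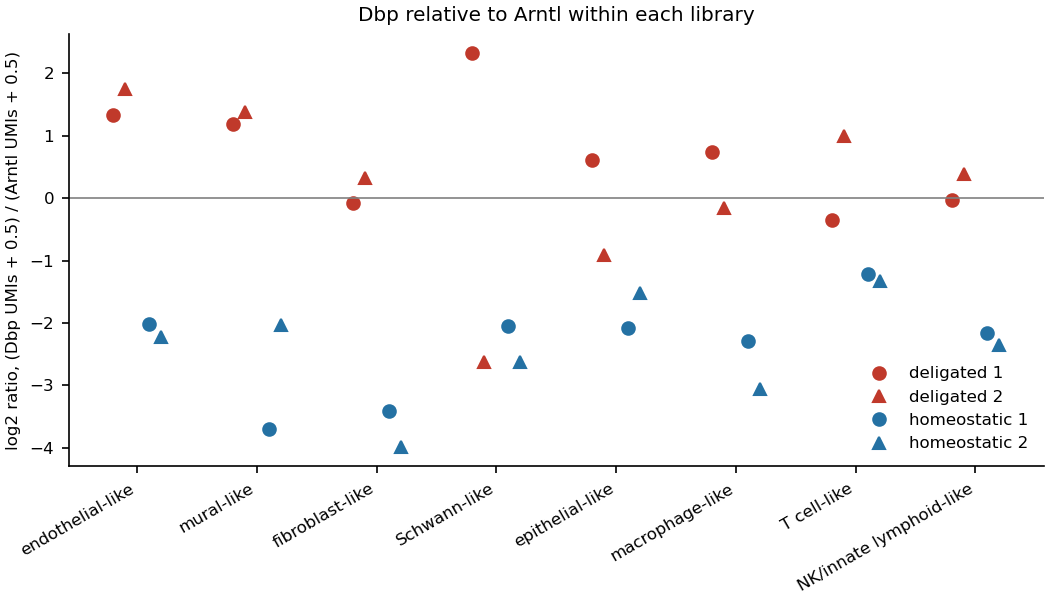
Log2 ratio of Dbp to Arntl UMIs with 0.5 added to both (y axis) in 8 cell classes (x axis), 1 point per library, deligated in red and homeostatic in blue. In endothelial-like cells the deligated libraries lie at 1.33 and 1.75 and the homeostatic ones at -2.02 and -2.22. The Schwann-like points rest on 0 to 15 UMIs, the deligated macrophage-like ones on 1 to 9 and the deligated epithelial-like ones on 4 to 11.

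The members also differed between kinds of vessel cell that all 4 libraries held. In the endothelial cluster led by Sema3g and Gja5, genes of arteries, Dbp was at 101 and 118 CPM in the deligated and 22.1 and 19.6 CPM in the homeostatic libraries. In the cluster led by Selp and Vwf, genes of veins, it was at 16.9 and 46.4 against 9.78 and 6.43 CPM. Each library had more Dbp in the first cluster than in the second. Nr1d1 was at 108 and 157 against 34.7 and 43.9 CPM in the former and at 31.2 and 83.9 against 4.89 and 3.22 CPM in the latter, in the same order. In the latter the homeostatic values rest on 6 and 4 UMIs for Dbp and 3 and 2 for Nr1d1. Arntl had the opposite order in every library, with 17.5 and 31.2 against 42.4 and 45.8 CPM in the former and 49.3 and 39.1 against 104 and 75.6 CPM in the latter. Most endothelial-like cells lay in a cluster led by Hlx and Rsad2 in the deligated libraries (80.8% and 85.1%) and in one led by Dlg2 in the homeostatic ones (76.5% and 77.1%), and the homeostatic libraries had only 38 and 37 cells in the first of these. In that cluster Dbp was at 72.0 and 86.1 against 19.3 and 40.9 CPM, from 834, 1267, 2 and 4 UMIs. Arntl was at 26.0 and 23.9 against 19.3 and 51.2 CPM, from 301, 351, 2 and 5 UMIs, and the groups overlapped. The order between clusters is a description, and clock genes were left out of the clustering.

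Mural-like cells of both kinds showed the same order between groups. In the cluster led by Pln and Myh11, of smooth muscle, Dbp was at 42.8 and 41.3 against 2.42 and 8.52 CPM. In the cluster led by Colec11 and Kcnj8, of pericytes, it was at 66.3 and 89.7 against 5.19 and 13.8 CPM. The homeostatic Dbp values rest on only 1 and 4 UMIs in the former and 1 and 2 in the latter. Arntl was at 16.8 and 16.5 against 48.3 and 34.1 CPM in the former and 32.0 and 32.5 against 62.2 and 69.0 CPM in the latter. Most fibroblast-like cells of the deligated libraries lay in a cluster led by Cilp and Mfap4 (98.9% and 100%) and most of the homeostatic ones in a cluster led by Gm16263 and Astn2 (87.3% and 87.4%). NK/innate lymphoid-like cells were split in the same way, between clusters led by Cd7 and by Dscam.

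T cell-like cells were a mixture in which Nr1d1 was unevenly spread. In a cluster led by Cd163l1 and Il17a, genes of gamma delta T cells that make interleukin 17, Nr1d1 was at 55.5 and 55.6 CPM in the deligated libraries and 65.6 CPM in the second homeostatic one, from 62, 57 and 8 UMIs. In the cluster led by Cd8b1 and Cd8a it was at 3.25 and 5.54 CPM in the deligated libraries, and in the one led by Themis and Cd6 at 0 and 1.33 CPM in the homeostatic ones. In the Cd163l1 cluster the deligated libraries were not above the homeostatic one, and the first homeostatic library had under 15 cells of it. That cluster made up 30.1% and 20.0% of deligated and 15.7% of homeostatic T cell-like cells where it was counted, and the part of its share in the class's Nr1d1 level was not tested.

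**Figure D4:**
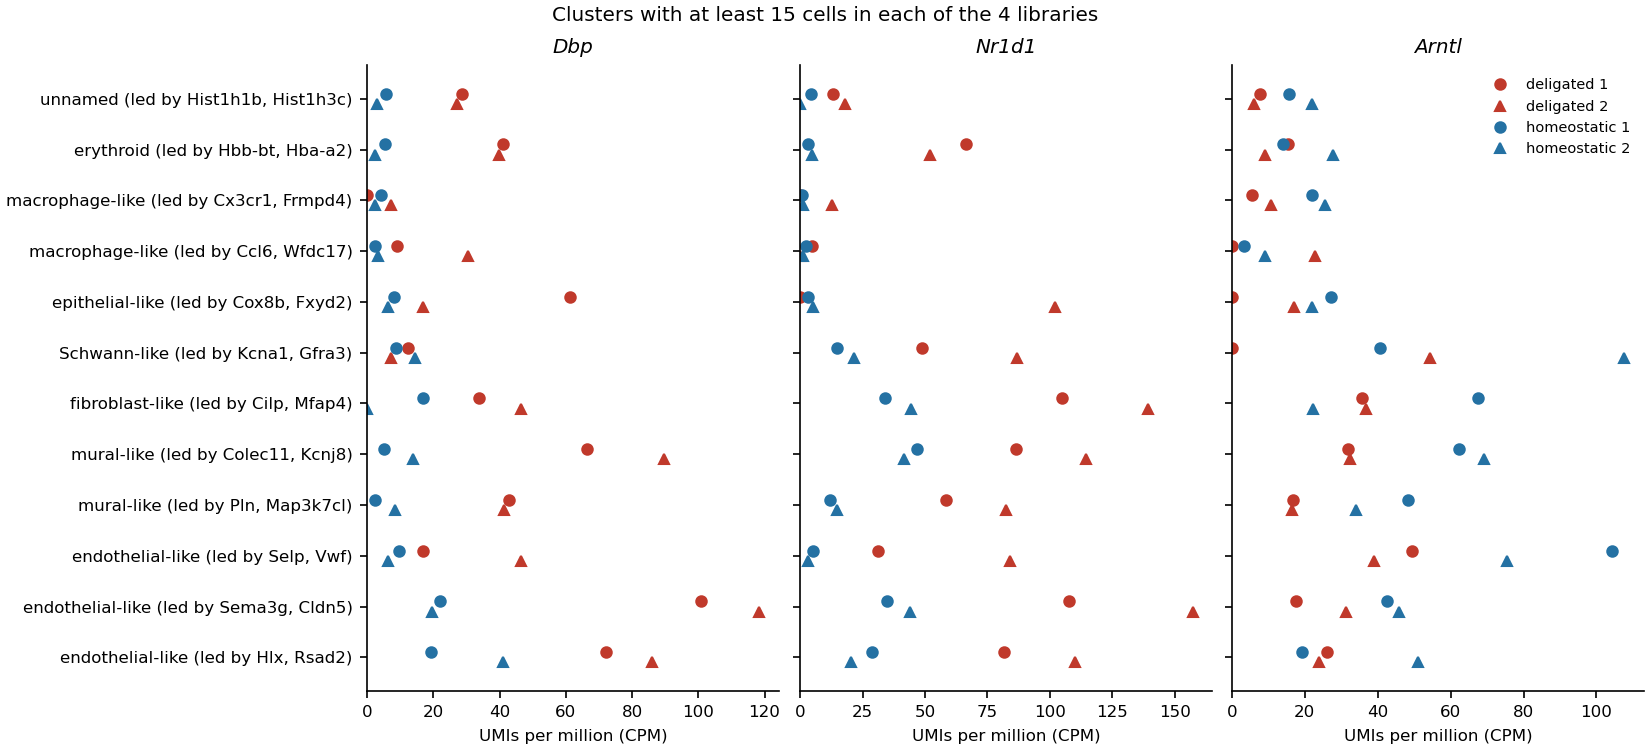
CPM of Dbp, Nr1d1 and Arntl (x axes, linear from 0) in the clusters with at least 15 cells in each of the 4 libraries (y axis, named by class and 2 leading genes), deligated in red and homeostatic in blue. In the cluster led by Sema3g, Dbp is at 101 and 118 CPM in the deligated and 22.1 and 19.6 CPM in the homeostatic libraries.

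Of the 9 members fitted in fibroblast-like cells, the 3 with the most intron, Npas2, Arntl and Cry1, had the lowest log2 fold changes, and the 2 with the least, Dbp and Nr1d1 (4.33 kb), had the highest. Per2, with 37.5 kb, was too scarce to be fitted there. Per1 departed from this order, being lower in the deligated libraries with 9.11 kb of intron. Nr1d2 and Per3, with 29.7 and 31.4 kb, were on the other side of zero from Cry1. With the trend removed, Dbp and Nr1d1 went from 2.64 and 2.11 to 2.45 and 1.94 in endothelial-like cells and from 2.65 and 2.27 to 2.36 and 2.02 in fibroblast-like cells.

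**Figure D5:**
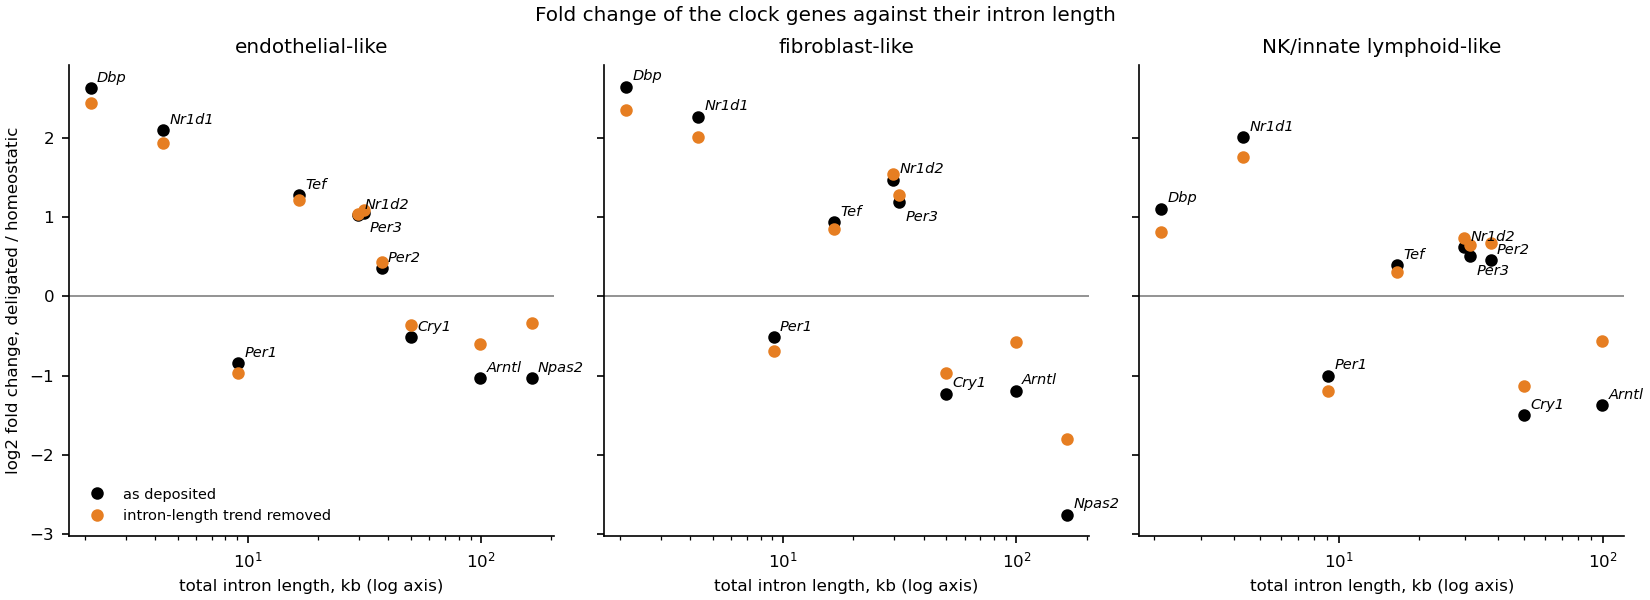
Log2 fold change of the members (y axis) against total intron length in kb (x axis, log scale) in 3 classes, from the counts as deposited in black and with the intron-length trend over all genes removed in orange. In endothelial-like cells Arntl moves from -1.03 to -0.60 and Dbp from 2.64 to 2.45.

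A list of 22 further clock genes was read beside the members. In macrophage-like cells 15 of them were fitted and 3 were called, beside 15.2% of all genes, so the count says little about the list. Bhlhe40, a repressor of E-box genes with 1.59 kb of intron, was at 47.3 and 45.1 against 9.44 and 8.56 CPM and was higher by 2.24 on the log2 scale (SE 0.25, adjusted p 0.0013). Its adjusted p ran from 2.74e-10 to 0.423 over the alternatives, with the call lost after thinning, with doublets kept and at a finer clustering. Its log2 fold change ran from 1.06 (doublets kept) to 2.29. Clock, the partner of Arntl with 81.2 kb of intron, was at 14.9 and 21.8 against 49.0 and 45.3 CPM (-1.40, SE 0.25, adjusted p 0.00863), which shrank to -0.81 (adjusted p 0.107) with the intron trend removed. Btrc, which marks Per proteins for breakdown and has 149.4 kb of intron, had -2.41 (SE 0.56, adjusted p 0.0251), and -1.39 (adjusted p 0.219) without the trend or -2.18 (adjusted p 0.148) without the second homeostatic library. In epithelial-like cells 0 of 17 were called by edgeR, with 0 at an unadjusted p under 0.05 and 0 by DESeq2. In Schwann-like cells 1 of 7 was called, Rora, an activator at the RORE with 721.4 kb of intron. It was at 30.5 and 43.4 against 703 and 1334 CPM (-4.81, SE 0.62, adjusted p 0.0364), and -3.47 (adjusted p 0.204) without the trend. Rora reached the level that the filter on low counts asks for only in the homeostatic libraries, where it was high. The call carries that selection and is a description. Without the first or the second deligated library the Rora call was lost too (adjusted p 0.112 and 0.0988), in fits where the 1 left is assumed to vary like the homeostatic ones. The log2 fold change stayed between -5.20 and -3.47 over all 14 alternatives.

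In the classes that chose the members, 6 of 21 fitted genes of this list were called higher and 3 lower in endothelial-like cells, 2 and 5 of 19 in fibroblast-like, 0 and 2 of 14 in mural-like, 2 and 4 of 16 in NK/innate lymphoid-like and 0 and 1 of 18 in T cell-like cells. Of all genes 35.6%, 27.6%, 8.68%, 41.4% and 17.5% were called in these classes, so the list's counts are not read as a result. The list's median log2 fold change lay between -0.18 and 0.15 in all classes, and that of all genes between -0.05 and 0.04. Rora had log2 fold changes of -2.50, -2.65 and -2.20 in endothelial-, fibroblast- and mural-like cells, which became -0.95, -0.65 and -0.72 without the intron trend. In NK/innate lymphoid-like cells it turned from -0.57 to 1.80. The E-box repressor Bhlhe41 and the clock repressor Ciart, both with little intron, were higher in endothelial-like cells, at 1.32 (SE 0.25) and 1.34 (SE 0.32). In fibroblast-like cells Arntl2 and Rorb were at -1.33 (SE 0.30) and -2.85 (SE 0.87), and at -1.24 and -1.88 without the trend. Rorb was at 4.59 and 0 against 15.5 and 15.6 CPM, and its value was -8.75 without the first and -1.63 without the second deligated library. Btrc was lower in mural-like (-1.04, SE 0.24), NK/innate lymphoid-like (-1.44, SE 0.11) and T cell-like cells (-1.35, SE 0.27), which became -0.43, -0.31 and -0.31 without the intron trend. Csnk1e, a kinase of Per proteins, was higher in NK/innate lymphoid-like cells (0.50, SE 0.17), with values from 0.03 (cells thinned to 1000 UMIs) to 0.68 over the alternatives.

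Genes of acute cell stress and tissue dissociation were read in the same comparison. Of 15 immediate early genes 12 were called higher and 0 lower in endothelial-like, 9 and 1 in fibroblast-like, 8 and 0 in mural-like, 10 and 1 in NK/innate lymphoid-like, 11 and 0 in T cell-like and 9 and 0 in macrophage-like cells. Of all genes 13.1%, 8.99%, 1.60%, 15.2%, 4.48% and 4.81% were called higher in these classes. In epithelial-like cells 0 of 15 and in Schwann-like cells 0 of 12 fitted were called by edgeR, with a median log2 fold change of 1.25 and 1.34, with 10 and 5 at an unadjusted p under 0.05 and with 1 and 0 by DESeq2. Of 12 genes that respond to glucocorticoids, hormones that also set peripheral clocks, 6 were called higher and 3 lower in endothelial-like cells and 8 and 2 in fibroblast-like cells. The counts were 4 and 1 of 11 fitted in mural-like, 3 and 4 of 11 in NK/innate lymphoid-like, 3 and 3 of 11 in T cell-like and 2 and 2 of 11 in macrophage-like cells. In epithelial-like cells 0 of 11 and in Schwann-like cells 0 of 5 were called by edgeR, with 1 and 2 at an unadjusted p under 0.05 and 0 and 0 by DESeq2, which gave Pdk4 no adjusted p in epithelial-like cells. Beside the shares called higher above, 22.5%, 18.6%, 7.08%, 26.2%, 13.0% and 10.4% of all genes were called lower in the other 6 classes, in the order given for the immediate early genes. In endothelial-like and fibroblast-like cells Fkbp5 had log2 fold changes of -0.56 and -1.23 and Tsc22d3 of 0.60 and 0.58. The part of either list in the clock gene differences was not tested.

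Across 32 points, 1 for each class and library, the gene outside the members with the pattern most like Dbp was Edc4 (Pearson's r of log2(CPM + 5) 0.79), followed by Ctbp1 (0.75), Wbp11 (0.72), Irf2bpl (0.72) and Hnrnpk (0.71), among 9814 genes with a mean of at least 10 CPM. Among the members Dbp was most like Nr1d2 (0.79), Nr1d1 (0.74) and Tef (0.71). Dbp gave -0.01 with Arntl, -0.05 with Npas2, -0.20 with Cry1 and -0.22 with Per1. Arntl gave 0.26 with Nr1d1, 0.25 with Tef, 0.20 with Per3 and 0.17 with Nr1d2. Across these points the pairs named here, of members that differed in opposite directions between groups, thus ran from -0.22 to 0.26. The genes most like Arntl were Pex13 (0.83), Kremen1 (0.82), Sh3rf1 (0.81), Cdc27 (0.80) and Dnmbp (0.80). The points share libraries and depth, so the values are a description.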

How the data were processed

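The deposited matrices hold raw UMI counts per gene and cell barcode, made by Cell Ranger 6.0.1 (deligated) and 7.0.0 (homeostatic) per the file headers. The submitters' processing notes name Cell Ranger 6.0.1, Seurat and the build mm10 for all libraries. Whether introns or strand were used in counting is not given in the sources used here. Cells with at least 300 genes and at most 10% mitochondrial UMIs were kept. Doublets were removed by Scrublet score at 0.8% per 1000 cells (3.63% to 9.66% of cells), because the automatic threshold marked only 2 and 0 cells in the homeostatic libraries. Cells were clustered with scanpy 1.11.5 (3000 variable genes without clock genes, 30 principal components, 20 neighbours, Leiden resolution 1.0), without batch correction. Clusters were named from a list of markers where at least 3 of a class were present. They were left unnamed where fewer were present, where another class had as many markers or more among the 10 leading genes, or where none was among those 10 and UMIs were low or markers of another class were present.

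For each class the counts of all its cells in a library were added up and tested with edgeR 4.0.16 (quasi-likelihood, TMM, filterByExpr), deligated against homeostatic, 2 libraries each, with Benjamini-Hochberg adjustment over all genes of the class. An exact permutation test of 2 against 2 cannot give a two-sided p below 0.333. The fit was tested on simulated data. Coordinates and intron lengths come from GENCODE M21 (GRCm38), which matched 30934 of 31053 gene identifiers. Alternatives covered DESeq2 1.42.0, the filter on low counts, size factors, clock genes in the clustering, a replicate block, the intron trend, thinning to 1000 UMIs, a stricter cell filter (500 genes, 5%), doublets, clustering and leaving out each library. Intervals cover counting error only. The members and lists were chosen with earlier results of these data known. Named genes were all members, the further clock genes called in the 3 classes outside the choice, the 3 called with the largest fold change in each other class, and the 5 genes most like Dbp and Arntl; glucocorticoid genes were named after their values were seen.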

Additional observations from a re-analysis of the deposited data

Results flagged for a closer look

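Arntl had opposite directions in 2 classes. Both deligated libraries were above both homeostatic ones in epithelial-like cells (log2 fold change 0.22) and below them in NK/innate lymphoid-like cells (-1.38). The difference was not tested, the epithelial-like value rests on 7 and 8 deligated UMIs, and it turned under 4 alternatives.

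Cells outside the compared classes carried the same genes. In erythroid cells, of which the first deligated library held 16, Dbp had a mean of 40.3 CPM in the deligated libraries, at 40.9 (95% Poisson interval 17.7 to 80.7) and 39.7 (27.6 to 55.2) against 5.36 and 2.42 CPM. Nr1d1 had a mean of 59.3 CPM there, at 66.5 and 52.1 against 3.22 and 4.83 CPM. Endothelial markers in the erythroid cells stood at 67.0% and 44.6% of their level in endothelial-like cells in the deligated and at 28.3% and 27.2% in the homeostatic libraries. Macrophage markers there were at 87.0 and 342 against 2190 and 2092 CPM. The lymphatic and mural lists were also higher in both deligated libraries, and the epithelial, dendritic and erythroid lists lower. The part of these lists in the result was not tested. In cells of unnamed clusters Dbp had a mean of 23.0 CPM in the deligated libraries against 1.93 and 1.63 CPM, and Nr1d1 one of 12.5 against 3.59 and 3.86 CPM. The unnamed cells differed in kind between groups. Cycling cells led by Hist1h1b gave 93.9% and 70.5% of their UMIs in the deligated and 9.75% and 9.47% in the homeostatic libraries, where cells led by Scgb2b26 gave 70.8% and 66.8%. The cycling cluster, which all 4 libraries held, had Dbp at 28.7 and 27.0 against 5.66 and 3.14 CPM, from 11, 9, 4 and 2 UMIs. In the unnamed cells NK/innate lymphoid markers were summed at 2988 and 1780 against 217 and 217 CPM. T cell markers were at 738 and 545 against 87.9 and 81.3 CPM and mural markers at 1939 and 300 against 12.6 and 12.3 CPM. Epithelial markers were lower, at 135 and 224 against 477 and 485 CPM. The part of these lists in the values was not tested.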

How the results depend on the processing

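Members called in macrophage-like cells numbered 0, and 2 with no filter on low counts; in epithelial-like cells 1, and 2 with DESeq2, 0 after thinning, 3 with doublets kept and 3 with no filter; in Schwann-like cells 0, and 1 with doublets kept. Leaving out 1 library gave 0 to 1, 0 to 3 and 0 to 1 calls. In the classes that chose the members, where the count follows from the choice, 28 of 46 were called beside 27.3% of all genes, 16 after thinning beside 20.0%, and 20 to 32 when a library was left out beside 11.7% to 38.2%. The replicate numbers are shared by name only, since nothing in the labels ties them, and the correlation of same-numbered libraries ran from -0.31 to 0.02. With the replicate block the counts were 1, 1, 0 and 30. Signs turned for Per1 in macrophage-like cells (0.071 at Leiden resolution 2.0, 0.70 thinned, 0.36 without the second homeostatic library), for Cry1 there (-0.11 at resolution 2.0, -0.38 with doublets, -0.88 without the first deligated library), for Arntl in epithelial-like cells (-0.10 at resolution 2.0, -0.041 thinned, -0.13 with doublets, -0.17 without the second deligated library), for Per1 in epithelial-like cells (0.25 without the second deligated library) and for Rora in NK/innate lymphoid-like cells (1.80 without the intron trend). Values not called in the classes that chose the members also changed sign: Per1 reached 0.50 in T cell-like and 0.42 in mural-like cells, Nr1d2 -0.26 in T cell-like and Per2 -0.47 in endothelial-like cells. The cause was not tested. Over the fits that left out 1 library, Per1 and Cry1 in macrophage-like and Arntl and Per1 in epithelial-like cells ran from -0.58 to 0.36, -0.88 to 1.15, -0.17 to 0.52 and -7.58 to 0.25. Thinning left 2 members to fit in macrophage-like, 3 in epithelial-like and 0 in Schwann-like cells, and the stricter cell filter gave no macrophage-like value. Epithelial-like Nr1d1 kept its direction in every alternative that fitted it. Over all genes, calls moved by over 1.5 times with DESeq2 in epithelial-like (328 from 189), Schwann-like (49 from 5), fibroblast-like (2051 from 3204), macrophage-like (1014 from 1585), mural-like (494 from 846) and T cell-like cells (1134 from 1726), with no filter in epithelial-like (1054), Schwann-like (528), macrophage-like (2418) and mural-like cells (1325), and with the block in epithelial-like (385) and Schwann-like cells (129). Without the intron trend, higher and lower calls went from 1044 and 2160 to 937 and 1099 in fibroblast-like, from 501 and 1084 to 361 and 328 in macrophage-like, from 156 and 690 to 170 and 291 in mural-like and from 442 and 1284 to 275 and 475 in T cell-like cells, and from 0 and 5 to 0 and 1 in Schwann-like cells. Totals were 401526 and 688033 UMIs in deligated macrophage-like, 223421 and 179951 in deligated epithelial-like and 139395 to 344352 in Schwann-like cells; how far depth limited the calls was not tested.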
